A study of Mus musculus with 11 samples.

Results

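The serpin and annexin genes of the striatal RNA-seq table were examined in cells in which the transcription factor NF-Y had been knocked down. Every gene whose symbol starts with Serpin or consists of Anxa and a number was taken, which gave 9 of the 1767 genes of the table. Of these, 8 are described. They are 7 serpins, namely Serpinb9b and 6 genes of the Serpina3 cluster (Serpina3b, Serpina3c, Serpina3g, Serpina3j, Serpina3m and Serpina3n), and 1 annexin, Anxa2.

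NF-Y is a trimer of NF-YA, NF-YB and NF-YC that binds CCAAT boxes, and the comparison asked which transcripts differ in striatal cells when NF-YA and NF-YC are knocked down. Wild-type male C57BL/6 mice received AAV1/2 vectors in the striatum of both hemispheres at 6 weeks of age. In both groups the vector expressed EmGFP together with a miR-type RNAi under the CAG promoter, which is active in many cell types, and 3 weeks later the EmGFP-positive cells without propidium iodide staining were sorted. The NT2 group (n = 6 samples) carried a non-targeting miR and the YAYC group (n = 5 samples) carried miRs against NF-YA and NF-YC, so both groups had an injected brain, a vector and EmGFP. The gate takes any EmGFP-positive cell and can therefore hold glia. Samples are called here by group and by the number in their label, and the labels do not say whether a sample was 1 mouse or a pool. Where they were not separate animals, the spread given is technical.

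Serpins are protease inhibitors. Most offer a flexible reactive loop as bait, are cut by the protease and trap it in a covalent complex, and the sequence of this loop sets which proteases are caught. Serpina3n is the secreted mouse counterpart of human alpha1-antichymotrypsin and is a well-known transcript of reactive astrocytes and of some oligodendrocytes. Annexin A2 is a calcium-dependent membrane-binding protein that forms a complex with S100a10 and binds plasminogen and its activator at the cell surface.

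The Serpina3 genes lie side by side on chromosome 12 and are close copies of each other, so the stretches in which they do and do not differ are shown first. The coding stretch of the reactive loop is a part that tells them apart, though not the only one. The lines below hold it for the longest protein-coding transcript of each gene in GENCODE M21, starting at the conserved hinge, with capitals for the bases between the first 30 and the last 15, which include the site that proteases cut. It has 96 bases in 5 genes and 87 in Serpina3c, and lies in the last exon of each. For Serpina3n this is chr12:104413442-104413537 on the plus strand of GRCm38, in exon 5 of 5.
Serpina3n: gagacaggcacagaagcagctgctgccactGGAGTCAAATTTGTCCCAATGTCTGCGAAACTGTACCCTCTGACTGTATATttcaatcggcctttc
Serpina3g: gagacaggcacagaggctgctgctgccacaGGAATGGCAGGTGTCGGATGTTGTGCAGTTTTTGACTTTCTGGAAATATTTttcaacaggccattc
Serpina3m: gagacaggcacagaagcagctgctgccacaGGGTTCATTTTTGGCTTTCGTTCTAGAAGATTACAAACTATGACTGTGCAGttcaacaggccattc
Serpina3c: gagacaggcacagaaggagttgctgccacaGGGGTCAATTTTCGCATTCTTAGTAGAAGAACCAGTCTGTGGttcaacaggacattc
Serpina3j: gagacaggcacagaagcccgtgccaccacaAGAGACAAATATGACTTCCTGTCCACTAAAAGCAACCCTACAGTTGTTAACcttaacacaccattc
Serpina3b: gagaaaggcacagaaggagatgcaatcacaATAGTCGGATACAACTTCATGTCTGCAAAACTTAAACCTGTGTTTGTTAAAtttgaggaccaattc

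None of the 50-base windows in these 6 stretches, 47 in each gene and 38 in Serpina3c, was found in any transcript of another gene. A read of 50 bases that lies within the stretch therefore belongs to 1 gene of the annotation. Elsewhere the genes share some of their sequence. The first 50 coding bases of Serpina3n, in exon 2 of 5 at chr12:104408671-104408720 (GRCm38, plus strand), occur unchanged in Serpina3j, and with 3 differences in Serpina3b and 5 in Serpina3c and Serpina3m. Serpina3g is not shown, and its nearest coding stretch differed at 26 of the 50 bases and spanned exons 4 and 5. In the lines below, capitals mark bases that differ from Serpina3n.
Serpina3n: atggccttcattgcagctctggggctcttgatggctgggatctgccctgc
Serpina3j: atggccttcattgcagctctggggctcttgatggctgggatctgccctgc
Serpina3b: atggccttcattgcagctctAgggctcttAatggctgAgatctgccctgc
Serpina3c: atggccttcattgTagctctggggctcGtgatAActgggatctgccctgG
Serpina3m: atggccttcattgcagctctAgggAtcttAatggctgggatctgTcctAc

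Over the whole coding sequence, Serpina3n was 85.9% identical to Serpina3c, 85.2% to Serpina3m, 81.7% to Serpina3j and 78.9% to Serpina3b. With Serpina3g it shared 84.7% of the 648 coding bases that could be aligned, because the annotated coding sequence of that transcript has 744 bases against 1254 in Serpina3n. Of all 50-base windows of a transcript, the length of the reads, 19.1% in Serpina3m and 16.02% in Serpina3g also occurred in another gene. The share was 6.90% in Serpina3n, 5.62% in Serpinb9b, 4.25% in Serpina3c, 3.13% in Serpina3j and 2.92% in Serpina3b, and 0% in Anxa2. The partners differed. For Serpina3m they lay mostly in Serpina3k (257 windows), and for Serpina3g in Serpina3h (152), Serpina3f (117) and Serpina3i (107). With Serpina3n itself, Serpina3g shared 51 windows, Serpina3c 25, Serpina3m 18, Serpina3j 17 and Serpina3b 4. Fractional counts, which arise when 1 read is divided among genes, occurred in 6 to 11 of the 11 samples for each Serpina3 gene and in none for Anxa2 and Serpinb9b. Counts of the 6 Serpina3 genes are therefore given as uncertain in how reads were divided among them.

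**Figure D1:**
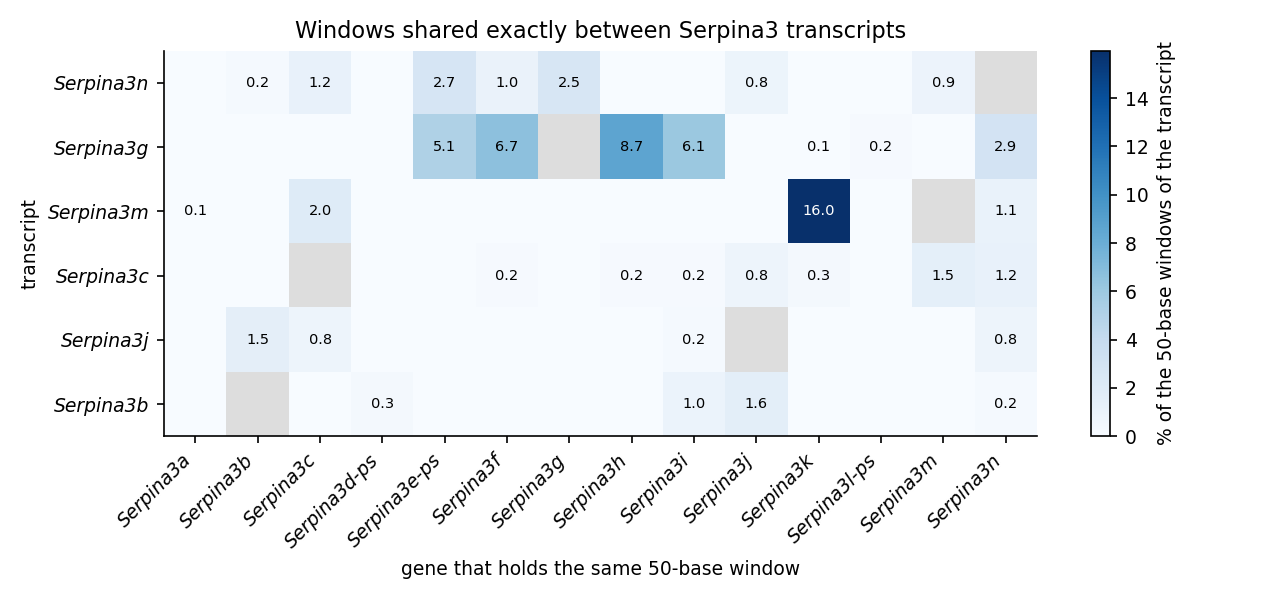
Percent of the 50-base windows of each Serpina3 transcript (rows) that occur unchanged in another gene (columns, darker for more), with gray for the gene itself. Most shared windows of Serpina3m lie in Serpina3k, and at most 2.91% of the windows of any gene lie in Serpina3n.

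Upstream sequence is shown because NF-Y binds CCAAT, for genes whose annotated start lies after the first base of their RefSeq window. Serpinb9b also qualifies, but its sequence held no match and is not printed. RefSeq start-site windows (GRCm38.p6, 250 bases before to 50 after the start) were given for 7 of the 8 genes, that is all but Serpina3m. The sequences printed are the bases of the window that precede the annotated gene, at chr12:104406458-104406645 for Serpina3n (plus strand), chr12:104153930-104154122 for Serpina3c (minus strand), chr12:104127746-104127985 for Serpina3b (plus strand), chr12:104235897-104236146 for Serpina3g (plus strand) and chr9:69453433-69453682 for Anxa2 (plus strand). Capitals mark matches, on either strand, to CCAAT, to TTCNNNGAA as bound by STAT factors, to GAAA repeated after any 2 bases as bound by interferon regulatory factors, or to TGANTCA as bound by AP-1.
Serpina3n: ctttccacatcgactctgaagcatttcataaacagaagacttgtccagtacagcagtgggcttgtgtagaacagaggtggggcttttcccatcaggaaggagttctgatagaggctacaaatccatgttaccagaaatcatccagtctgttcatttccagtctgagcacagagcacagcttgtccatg
Serpina3c: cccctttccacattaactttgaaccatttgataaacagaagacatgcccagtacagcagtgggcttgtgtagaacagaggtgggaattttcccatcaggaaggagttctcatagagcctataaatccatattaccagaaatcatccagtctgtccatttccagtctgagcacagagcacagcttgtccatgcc
Serpina3b: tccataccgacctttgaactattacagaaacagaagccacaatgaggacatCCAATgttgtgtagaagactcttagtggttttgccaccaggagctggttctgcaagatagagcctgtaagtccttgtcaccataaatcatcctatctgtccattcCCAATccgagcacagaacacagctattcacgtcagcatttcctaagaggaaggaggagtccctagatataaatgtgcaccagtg
Serpina3g: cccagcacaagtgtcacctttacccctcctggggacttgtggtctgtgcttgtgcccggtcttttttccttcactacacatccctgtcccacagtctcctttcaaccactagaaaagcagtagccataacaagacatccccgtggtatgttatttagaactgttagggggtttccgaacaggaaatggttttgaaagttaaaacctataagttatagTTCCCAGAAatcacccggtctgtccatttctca
Anxa2: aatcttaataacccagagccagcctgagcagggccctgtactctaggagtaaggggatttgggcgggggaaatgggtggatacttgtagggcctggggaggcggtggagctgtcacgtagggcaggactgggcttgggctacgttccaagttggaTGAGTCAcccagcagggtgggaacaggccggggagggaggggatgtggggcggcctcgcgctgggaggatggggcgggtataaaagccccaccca

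CCAAT occurred in 37.4% of the 32851 mouse windows. It was absent from the windows of Serpina3n, Serpina3c, Serpina3g, Anxa2 and Serpinb9b. The window of Serpina3b held it at 199 and at 94 bases before the start site of the window. The printed sequence of Serpina3b stops short of that site, after 240 bases. The window of Serpina3j, which lies within the annotated gene and is not printed, also held 2 matches, so that 2 of the 7 windows had CCAAT. TTCNNNGAA, found in 8.30% of windows, occurred once in Serpina3g at 33 bases before the start, and TGANTCA, found in 7.81%, once in Anxa2 at 95 bases before the start. The GAAA repeat, found in 3.44%, occurred in none of the 7. The windows of Serpina3n and Serpina3c were identical at 275 of 294 aligned bases (93.5%), against 72.4% for Serpina3b and 64.3% for Serpina3g. A match is a match of letters only, and its absence concerns these windows only.

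All 8 genes had higher mean counts in YAYC than in NT2. The genes of the table had been chosen by the authors' p-value for this same comparison, which is under 0.05 for every gene listed, and the serpins and annexins were picked out with their changes known. The contrast is therefore described without a test of the 8 genes. In the edgeR fit to all 1767 genes, 8 of 8 had a p under 0.05 and a fold above 1.2 in the direction of YAYC, a call made for 40.7% of listed genes, and 25.9% were called lower. Their median log2 fold change was 2.03, against -0.13 over all listed genes, of which 42.5% lay above 0 (42.1% under the scaling of the authors). A log2 fold change above 1 was seen in 7 of the 8 and in 19.3% of listed genes. Levels are given as normalized counts, that is estimated counts divided by a TMM factor per sample. The counts of listed genes summed to between 1581757 (NT2 replicate 3) and 3141324 per sample, which is not the depth of the libraries. In such sorted mixtures, a change in the number of cells of a type and a change of RNA per cell cannot be told apart.

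Nfyc, which the YAYC vector targets, was measured at 921 ± 173 (SD, n = 6) normalized counts in NT2 and 806 ± 146 (SD, n = 5) in YAYC, with a log2 fold change of -0.19 (SE 0.15) without a call, and its groups overlapped. It was called lower under the scaling of the authors, at -0.32 (SE 0.14), and with the glial score described below as a term, at -0.52 (SE 0.17). Nfya was not analysed here. NT2 replicate 3 stood apart from the other NT2 samples, with the highest NT2 value for 6 of the 8 genes, the lowest glial score and the highest score of interferon genes. Values without it are given beside the fold changes and relations that it moved.

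Serpina3n, the most abundant serpin of the table, lay between 1101 and 5902 normalized counts in the 6 NT2 samples, with a median of 2782. In YAYC replicates 4, 6, 8, 10 and 22 it was measured at 16128, 12865, 8906, 11525 and 13949. The lowest YAYC sample lay above the highest NT2 sample, which was replicate 3. Group means were 2910 ± 1688 (SD, n = 6) and 12675 ± 2698 (SD, n = 5), and the log2 fold change was 2.12 (SE 0.35). Leaving out each sample in turn gave 1.95 to 2.45, with the highest value without NT2 replicate 3. The table places the gene at chr12:105644918-105652539 of mm9, plus strand.

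Anxa2, at chr9:69301490-69339592 of mm9, was the second of the genes in abundance per length. It ranged from 769 to 2018 in NT2, with a median of 950, and reached 2463, 2246, 1679, 1994 and 2345 in YAYC replicates 4, 6, 8, 10 and 22. The NT2 value of 2018 was that of replicate 3 and lay above 2 YAYC samples, whereas the other NT2 samples did not exceed 1094. Means were 1109 ± 459 (SD, n = 6) and 2145 ± 313 (SD, n = 5), with a log2 fold change of 0.95 (SE 0.22), or 1.21 without NT2 replicate 3. Unlike in the Serpina3 genes, no 50-base window of Anxa2 was shared with another gene.

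Per kilobase of transcript, Serpina3n came first with 1410 ± 818 (SD) normalized counts in NT2 and 6141 ± 1307 in YAYC. Anxa2 followed at 766 ± 317 and 1483 ± 216, and the spreads of these 2 genes between NT2 samples overlapped. Both genes were measured in the same samples, so this overlap does not show equal levels. Serpina3g lay at 13.8 ± 10.2 and 69.5 ± 30.5. Serpina3m came next with 8.42 ± 9.69 and 28.6 ± 8.76, and its spread between NT2 samples overlapped that of Serpina3g, again in the same samples. The means of Serpina3c, Serpina3j, Serpina3b and Serpinb9b stayed under 10 in both groups.

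**Figure D2:**
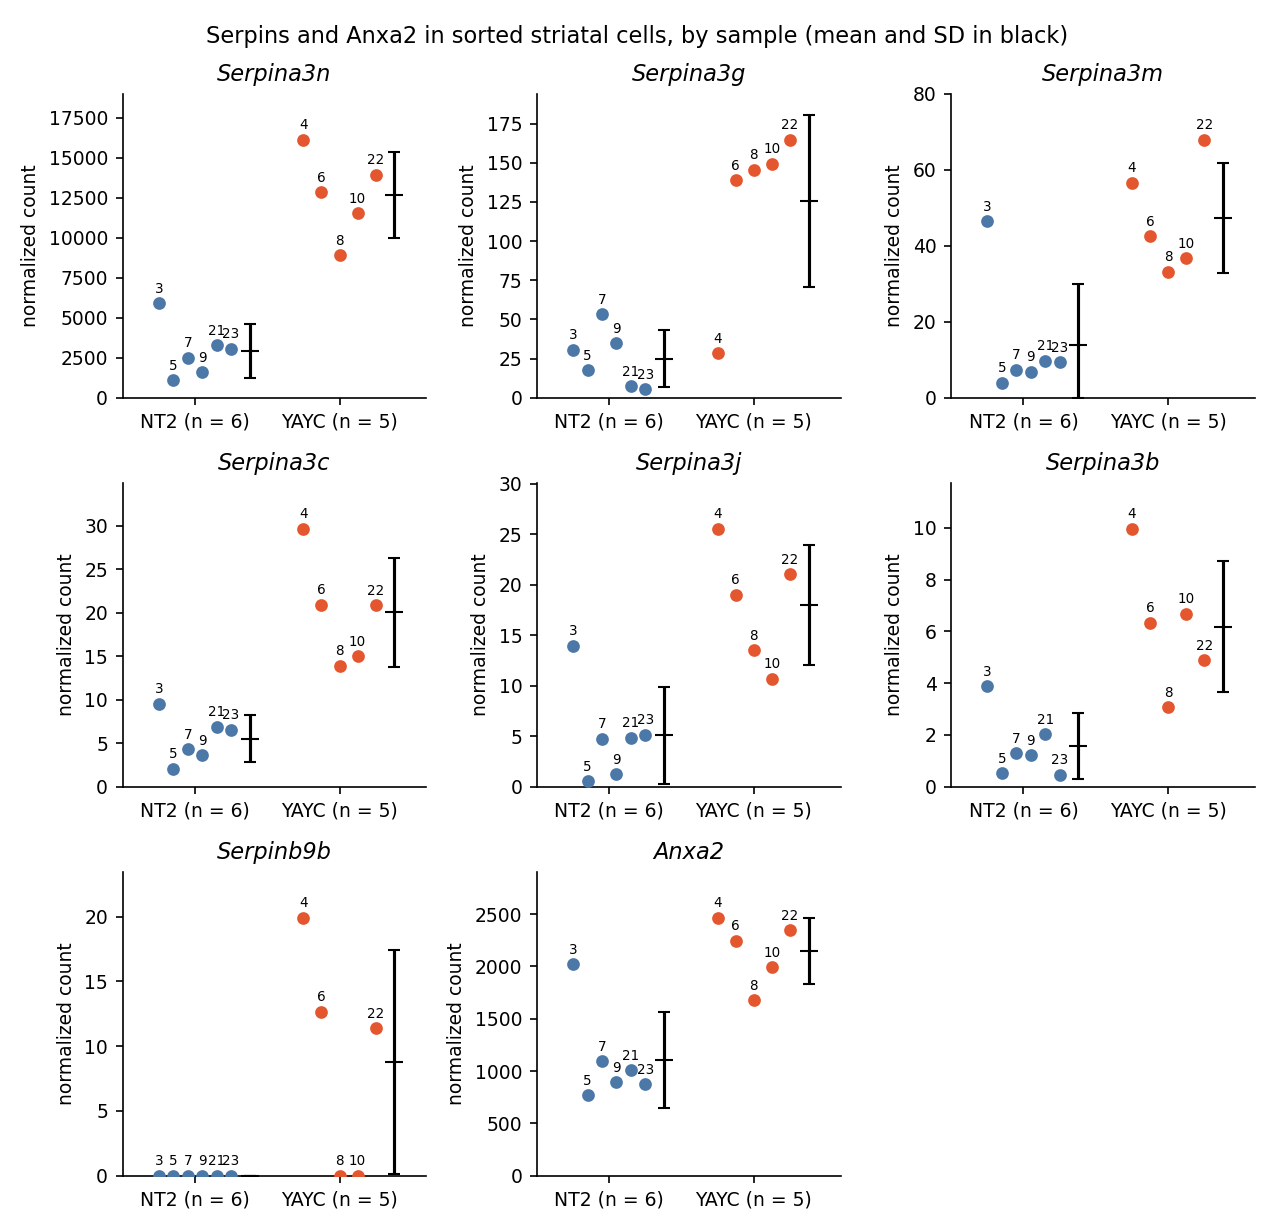
Normalized counts of the 8 genes in each of the 6 NT2 (blue) and 5 YAYC (orange) samples, each panel on its own linear axis from 0, with sample numbers above the points and mean and SD in black. Serpina3n and Serpina3c separate the groups, NT2 replicate 3 is the highest NT2 point of 6 genes, and YAYC replicate 4 lies among the NT2 samples for Serpina3g.

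Among the other Serpina3 genes, Serpina3g, also known as Spi2A, an intracellular inhibitor of cysteine cathepsins, had the most counts and its own order of samples. It was measured at 5.42 to 53.4 normalized counts in NT2, with a median of 24.1, and at 28.6, 139, 146, 149 and 165 in YAYC replicates 4, 6, 8, 10 and 22. YAYC replicate 4 lay below 3 of the NT2 samples, although it was the highest of all samples for Serpina3n. Conversely, NT2 replicates 21 and 23 were the lowest in Serpina3g and were exceeded among NT2 samples by replicate 3 alone in Serpina3n. Means were 24.9 ± 18.4 (SD, n = 6) and 125 ± 54.9 (SD, n = 5), and the log2 fold change was 2.33 (SE 0.56), with 2.12 to 2.72 when each sample was left out.

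Serpina3m and Serpina3c are less well described, and their counts were low. Serpina3m ranged from 3.97 to 46.5 in NT2, with a median of 8.38, and was measured at 56.6, 42.5, 33.2, 36.7 and 67.9 in YAYC replicates 4, 6, 8, 10 and 22. The groups overlapped through NT2 replicate 3 alone, and the log2 fold change of 1.84 (SE 0.55) became 2.63 without it. Serpina3c ranged from 2.07 to 9.56 in NT2, with a median of 5.44, and was measured at 29.7, 20.9, 13.9, 14.99 and 20.9 in YAYC. Its groups did not overlap, and the log2 fold change was 1.93 (SE 0.40).

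Serpina3j and Serpina3b had fewer than 10 estimated counts in every NT2 sample. Serpina3j ranged from 0.518 to 13.9 normalized counts in NT2, with a median of 4.81, and was measured at 25.5, 19.0, 13.5, 10.7 and 21.05 in YAYC replicates 4, 6, 8, 10 and 22 (log2 fold change 1.84, SE 0.60, or 2.31 without NT2 replicate 3). Serpina3b ranged from 0.468 to 3.87 in NT2, with a median of 1.26, and was measured at 9.96, 6.33, 3.07, 6.68 and 4.89 (log2 fold change 2.16, SE 0.63, or 2.43 without NT2 replicate 3). In both genes the overlap came from NT2 replicate 3, and no sample held more than 8 estimated counts of Serpina3b.

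Serpinb9b, an intracellular serpin of the family of granzyme B inhibitors, was listed at 0 in all 6 NT2 samples. Its estimated counts in YAYC were 16, 12 and 14 in replicates 4, 6 and 22 and 0 in replicates 8 and 10. Taking 3 counts over the NT2 group as the limit that a count of 0 allows, the observed YAYC mean was 18.5 times that limit. This covers the counting error of NT2 only and not the error of the YAYC mean. It is no test, since the gene was listed through its YAYC counts alone. The groups overlapped at 0. Shared windows of this gene lay mostly in Gm36099 (164) and in Serpinb9 (13).

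Over the 8 genes, the groups were free of overlap in 2, Serpina3n and Serpina3c, and all YAYC samples lay above all NT2 samples in 11.4% of listed genes and below them in 2.43%. Without NT2 replicate 3 this held for 6 of the 8 and for 22.9% of listed genes, the exceptions being Serpina3g and Serpinb9b. Under the scaling factors that the authors used for their log2 values, 8 of 8 were called higher (34.2% of listed genes, that is 605 higher and 832 lower, against 720 and 457 with TMM), with log2 fold changes of 2.00 for Serpina3n and 0.83 for Anxa2, and the median log2 fold change of all listed genes moved from -0.13 to -0.27. Within the samples numbered 3 to 10 (4 NT2 and 4 YAYC), the difference of mean log2 values was 2.42 for Serpina3n against 2.30 over all samples, and 1.59 against 2.49 for Serpina3g. The samples numbered 21 to 23 hold 1 YAYC sample and were not compared. The labels do not call these numbers a batch.

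The other Serpina3 genes were also expressed as a share of the count of Serpina3n in the same sample. Serpina3n made up 97.1% to 99.1% of the counts of the 6 Serpina3 genes in NT2 and 97.7% to 99.1% in YAYC. The count of Serpina3c was 0.196% ± 0.026 (SD, n = 6) of that of Serpina3n in NT2 and 0.157% ± 0.020 (SD, n = 5) in YAYC, and the highest sample was 1.74 times the lowest. Serpina3m stood at 0.412% ± 0.191 and 0.372% ± 0.067, with NT2 replicate 3 at 0.788%. For Serpina3j the values were 0.144% ± 0.071 and 0.140% ± 0.027, and for Serpina3b 0.053% ± 0.021 and 0.048% ± 0.013. The highest sample was 2.68 times the lowest for Serpina3m, 5.02 times for Serpina3j and 4.93 times for Serpina3b, the last with as few as 0.5 estimated counts in a sample. For each of these 4 genes the sample values of the groups overlapped, which does not show equal shares. With counts pooled over samples, the share of Serpina3c was 0.194% in NT2 and 0.156% in YAYC, and the difference was not tested.

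Serpina3g varied over a wider range. It stood at 1.14% ± 0.94 (SD, n = 6) of Serpina3n in NT2 and 1.07% ± 0.54 (SD, n = 5) in YAYC, and the highest sample (NT2 replicate 9, 2.18%) was 12.3 times the lowest (YAYC replicate 4, 0.177%). NT2 replicate 23 matched YAYC replicate 4 at 0.177%, and NT2 replicate 21 lay slightly above them at 0.222%. The variation lay within both groups and the group means were close. Whether reads of Serpina3n were counted for the other copies was not tested.

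**Figure D3:**
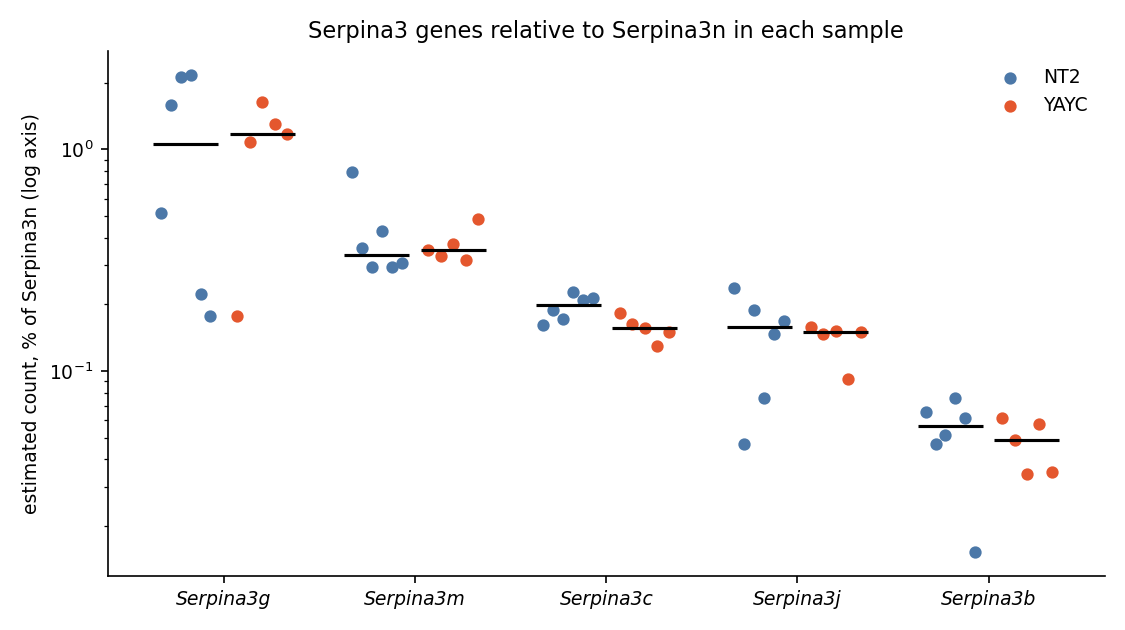
Estimated counts of 5 Serpina3 genes as a percent of Serpina3n in each NT2 (blue) and YAYC (orange) sample on a log axis, with the group median as a black line. Serpina3c spans 1.74-fold over the 11 samples and Serpina3g 12.3-fold, and the groups overlap for every gene.

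The genes whose within-group pattern was most like that of Serpina3n were sought over the 11 samples after removal of the group means, as Pearson's r of log2 normalized counts among 1454 genes with a mean of at least 50. These are descriptions, since samples share their cell mixture and library. Klk6, a kallikrein-related serine protease that is abundant in mature oligodendrocytes, came first with r = 0.98 (Spearman's rho 0.93), and r was 0.93 without NT2 replicates 3 and 5. Klk6 ranged from 1839 to 12599 normalized counts in NT2 and lay at 32929, 24964, 11794, 22551 and 28357 in YAYC replicates 4, 6, 8, 10 and 22. As for Serpina3n, NT2 replicate 3 was the highest NT2 sample, YAYC replicate 4 the highest and replicate 8 the lowest YAYC sample. The means of Klk6 were 5490 ± 3805 (SD, n = 6) and 24119 ± 7916 (SD, n = 5), with a log2 fold change of 2.14 (SE 0.42). Kcna6, a potassium channel subunit, A430084P05Rik, Apod, which encodes the lipid carrier apolipoprotein D, and Zdhhc24 followed with r of 0.94, 0.94, 0.90 and 0.90. Without NT2 replicates 3 and 5 these became 0.85, 0.87, 0.69 and 0.75. Between groups these genes did not all move as Serpina3n did, since the log2 fold change was -0.81 (SE 0.27) for Kcna6 and -0.20 (SE 0.14) for Zdhhc24, against 0.81 (SE 0.34) for A430084P05Rik and 1.05 (SE 0.26) for Apod. For Anxa2 the nearest were Ubqln1 (0.96), Cd63 (0.93), which encodes a tetraspanin of endosomes, Bag1 (0.91), Gmfb (0.90) and A430084P05Rik (0.90). Without NT2 replicates 3 and 5, r was 0.87 for Ubqln1, 0.69 for Cd63, 0.57 for Bag1, 0.76 for Gmfb and 0.57 for A430084P05Rik. Their log2 fold changes ranged from -0.18 (SE 0.10) in Gmfb to 0.81 in A430084P05Rik.

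**Figure D4:**
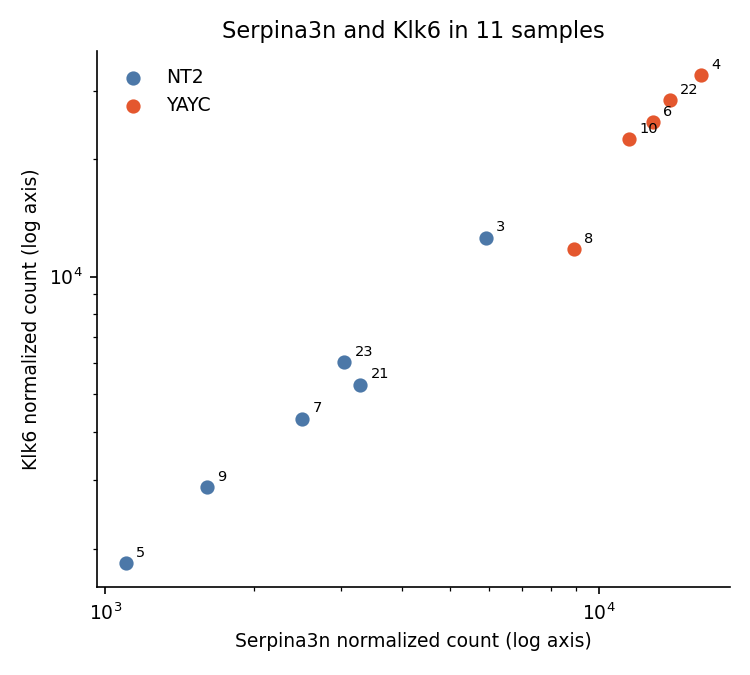
Normalized counts of Klk6 against Serpina3n on log axes for 6 NT2 (blue) and 5 YAYC (orange) samples, with sample numbers. The samples keep nearly the same order in both genes within each group, from NT2 replicate 5 at 1101 and 1839 to YAYC replicate 4 at 16128 and 32929.

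Genes on which serpins act or that act with them were looked up in lists chosen with earlier results of these data known. Of 32 proteases of kinds that serpins inhibit, 5 were in the table, 4 called higher and 1 lower. The higher ones included Klk6, Klk8 at a log2 fold change of 1.72 (SE 0.42) and Masp1 at 0.85 (SE 0.16), and the lower one was Htra1 at -0.89 (SE 0.26). Of 27 partners in plasminogen, matrix and complement pathways, 2 were in the table, the metalloprotease inhibitors Timp1, higher at 1.81 (SE 0.56), and Timp4, lower at -0.78 (SE 0.29). Of 20 annexin partners 2 were in the table, of which S100a6 was called higher at 0.74 (SE 0.17), and S100a3 had a log2 fold change of 0.93 (SE 0.47) without a call. Of 35 reactive glia genes, 5 were in the table and all 5 were called higher, with Steap4 at 2.53 (SE 0.83), Timp1 at 1.81, Aspg at 1.70 (SE 0.47) and Cxcl10 at 1.06 (SE 0.39). The lists are not separate, since Timp1 is also among the partners above and Cxcl10 among the interferon genes below. Listed genes were called higher in 40.7% and lower in 25.9% of cases, and these lists are read against that only as counts.

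Of 59 glial and vascular markers, 15 were in the table, which holds only genes with a p under 0.05 for this comparison. Calls of these markers and of the interferon genes below stand beside 25.9% of listed genes called lower and 40.7% called higher. Of 15 astrocyte markers 6 were in the table, all called lower, led by Gjb6 at a log2 fold change of -1.54 (SE 0.39), and their summed normalized count ranged from 25410 to 77526 in NT2 and from 14339 to 33423 in YAYC. Of 15 vascular and meningeal markers 7 were in the table, 6 called lower, with sums of 6353 to 10437 and 4111 to 6985. The single oligodendrocyte marker in the table, Ugt8a of 14 listed, was called lower at -0.50 (SE 0.20), and P2ry12, the single one of 15 microglia and macrophage markers, had a log2 fold change of -0.35 (SE 0.18) without a call. None of the 22 neuron and striatal projection neuron markers was in the table, so the neuronal identity of the sorted cells could not be checked here. Of 15 interferon genes 14 were in the table and all were called higher, with sums of 14842 to 81453 in NT2 and 58102 to 103813 in YAYC. The Serpina3 genes were higher where the 6 astrocyte markers in the table were lower, and the part of these markers in the result was not tested.

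Scores were computed as the mean of log2 values centred per gene. The interferon score used the 14 interferon genes in the table. The glial score used Ugt8a, P2ry12 and otherwise astrocyte markers, though not all astrocyte markers in the table. The glial score of 7 genes was 0.41 ± 0.60 (SD, n = 6) in NT2, with replicate 3 lowest at -0.51, and -0.49 ± 0.36 (SD, n = 5) in YAYC. The interferon score of 14 genes was -0.65 ± 0.87 (SD, n = 6) in NT2, with replicate 3 highest at 0.52, and 0.78 ± 0.35 (SD, n = 5) in YAYC. With the glial score as a term in the fit, the log2 fold change was 1.64 (SE 0.40) for Serpina3n, 2.46 (SE 0.81) for Serpina3g, 1.40 (SE 0.55) for Serpina3c and 0.56 (SE 0.24) for Anxa2. Then 4 of the 8, Serpina3n, Serpina3g, Serpina3c and Anxa2, were called higher, against 18.8% of listed genes. The other 4 lost their call, with log2 fold changes of 1.10 (SE 0.56) for Serpina3m, 1.03 (SE 0.72) for Serpina3j and 1.53 (SE 0.91) for Serpina3b, while Serpinb9b has no NT2 counts to set a fold change. Of the proteases and partners, Klk6 lay at 1.52 (SE 0.45) with this term and Klk8 at 0.91 (SE 0.44), the latter without a call, and Htra1 (-0.05) and Timp4 (-0.10) came close to 0. The value of Serpina3g alone among the 7 genes detected in both groups did not become smaller. The glial score is not independent of the contrast, since its genes were listed for this same comparison and all 7 were lower in YAYC. The term therefore overlaps with the group, and calls kept or lost with it do not measure a part of glia in the result.

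**Figure D5:**
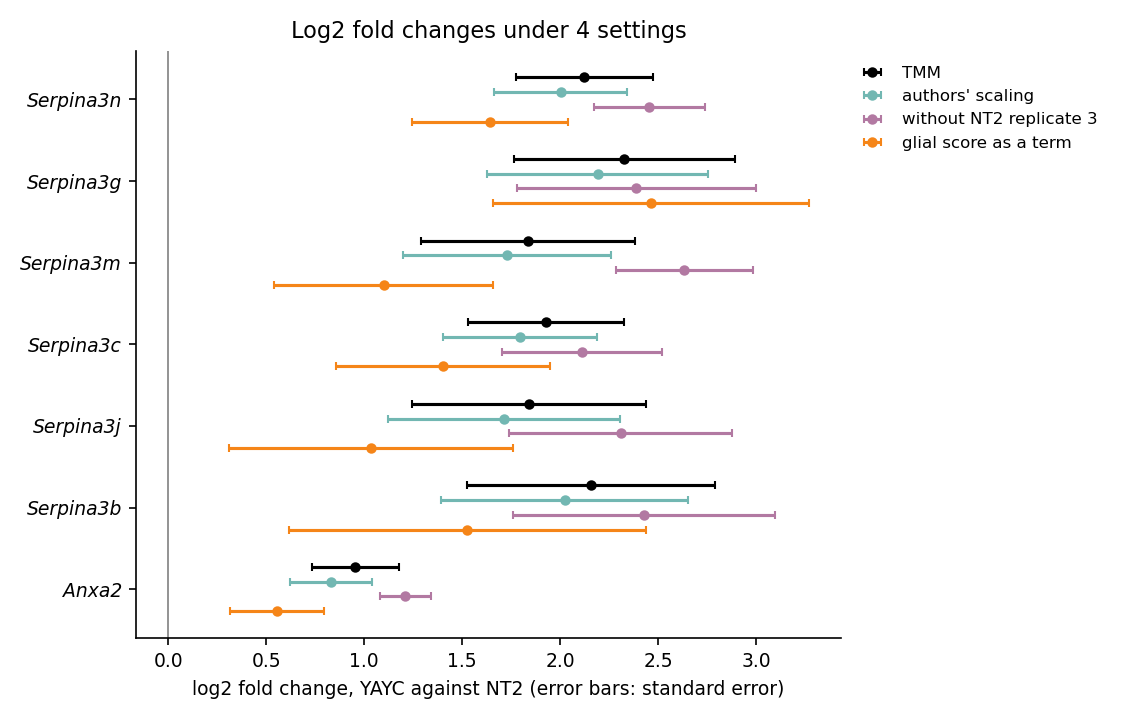
Log2 fold changes of 7 genes, YAYC against NT2, with standard errors as bars, under TMM scaling (black), the scaling of the authors (teal), without NT2 replicate 3 (purple) and with the glial score as a term (orange). All points lie above 0, and Anxa2 with the glial score as a term comes nearest to 0, at 0.56.

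Within groups, the relation of each gene to both scores was tested by exact permutation of samples within each group (n = 11 samples, 16 relations, two-sided). None passed a Benjamini-Hochberg adjusted p of 0.05, by Pearson's r (lowest adjusted p = 0.17) or by Spearman's rho (lowest adjusted p = 0.086). Unadjusted p was under 0.05 in 2 relations by Pearson's r and in 4 by Spearman's rho. With the glial score, r ranged from -0.62 in Serpina3m (exact p = 0.098) to 0.070 in Serpina3g (exact p = 0.85), and 7 of the 8 genes had r below 0. Without NT2 replicates 3 and 21, r was -0.36 for Serpina3m, -0.25 for Anxa2, -0.71 for Serpina3c, -0.52 for Serpina3n and 0.64 for Serpina3g. With the interferon score, Serpina3m had r = 0.77 (exact p = 0.017) and rho = 0.84 (exact p = 0.0069), Serpina3c r = 0.77 (exact p = 0.021) and rho = 0.79 (exact p = 0.016), and Serpina3n r = 0.70 (exact p = 0.065) and rho = 0.84 (exact p = 0.016). Without NT2 replicates 3 and 7, r was 0.72 for Serpina3m, 0.85 for Serpina3c and 0.77 for Serpina3n, and it fell from 0.39 to 0.11 for Serpina3b. Serpina3g had r = -0.40 (exact p = 0.30), and 7 of the 8 genes had r above 0.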

How the data were processed

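RNA of the sorted cells was amplified with the SMARTer Ultra Low Input kit and sequenced as single reads of 50 bases. The authors used Strand NGS for counting and deposited an estimated count per gene and sample, partly fractional and not normalized (54.3% of values whole within 0.01). The deposited log2 values are counts scaled per sample by the authors and centred on the median of each gene. The authors' p-value for YAYC against NT2 was used to describe the table only, and their fold changes were not used. Coordinates are mm9 per the submitters' processing notes, and the aligner is not given in the sources used here. The authors' stated minimum of 200 for the highest count had not been applied to the table, in which 439 genes lay below it.

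The 11 count columns were matched to samples by group and number. Estimated counts were rounded and fitted with edgeR 4.0.16 (glmQLFit, glmQLFTest, TMM, R 4.3.3) over all 1767 genes, with group as the only term. The SE is the log2 fold change divided by the square root of F. A gene was called at an unadjusted p under 0.05 and a fold above 1.2. Because the table holds only genes chosen by p-value, normalization and dispersion rest on such genes. Log2 values had 0.5 added. Relations to scores were tested by exact permutation within groups (SciPy 1.17.1), with Benjamini-Hochberg adjustment. In simulated counts of 1767 genes with 200 changed 2-fold, the edgeR fit called 142 of the 200, and 5 unchanged genes, at an adjusted p under 0.05. These numbers do not give the error rate of the calls above, which used an unadjusted p and a fold in a table of chosen genes. Same-group samples differed by a chi-square of 20.5 to 161 per degree of freedom over 25 pairs, and no 2 samples held identical or nearly identical counts. This compares them with counting error only and does not tell separate animals from repeat libraries of amplified cDNA. Transcript windows of 50 bases were compared without mismatches on both strands with all transcripts of GENCODE M21, and promoters came from RefSeq. No coordinates were converted between builds. Library depth is unknown, because the table holds only part of each library, and precision was taken from the count of each gene.

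The genes, the marker lists, the glial score and the tests were chosen with earlier results of these data known. The text names 8 of the 9 serpins and annexins (1 is not reported here), Nfyc as a targeted gene, at most 4 genes of each list by the largest log2 fold change, and the 5 genes most like Serpina3n and Anxa2. Alternatives were DESeq2 1.42.0, its size factors, the scaling of the authors, a minimum of 200 for the highest count, the number series or the glial score as a term, a robust fit, no fold threshold, 5 in place of 0.5 added, and leaving out each sample.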

Additional observations from a re-analysis of the deposited data

Results flagged for a closer look

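Single samples that stood far from the rest of their group, by the gap to the nearest sample relative to the range (Dixon's criterion), were looked for in 25 groups of values of the 8 genes and of the ratios to Serpina3n, and 6 were found. Chance flags about 1 in 20 groups where the values are independent and normally distributed. The counts and ratios examined come from the same samples and were not checked for this, so the number found is not read as an excess. Of the 6, 4 concerned NT2 replicate 3, which was the highest NT2 sample in Anxa2 (2018 normalized counts), Serpina3m (46.5), Serpina3j (13.9) and the count of Serpina3m as a percent of Serpina3n (0.788%). YAYC replicate 4 was the lowest YAYC sample in Serpina3g, with 28.6 normalized counts. YAYC replicate 10 was the lowest YAYC sample in the count of Serpina3j as a percent of Serpina3n, with 0.0927%.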

How the results depend on the processing

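Of 280 values recomputed under the alternatives, 270 moved by less than the criterion and 10 by more, and none reversed. For a log2 fold change the criterion was the pooled SD of that gene between samples, from 0.40 in Anxa2 to 1.79 in Serpinb9b. This is wide, so a value within it can still lose its call. With the glial score as a term, Serpina3j went from 1.84 to 1.03 and did so. All 139 recomputed log2 fold changes of the 8 genes stayed above 0. A reversal was unlikely from the start, because the genes had been listed for a difference between these same samples. With the glial score as a term, that of Anxa2 (0.56) moved beyond the spread between samples, 4 of the 8 genes were called higher, and over all listed genes 332 were called higher and 176 lower. With a minimum of 200 for the highest count, 3 of the 8 genes remained in the test, of which 3 were higher and 3 called higher, and over the genes kept 471 were called higher and 294 lower. Under the scaling of the authors, 605 listed genes were called higher and 832 lower, against 720 and 457 with TMM. Leaving out each sample gave 2 to 6 genes without overlap between groups, the 6 arising without NT2 replicate 3. No paired analysis was possible because the groups share no sample number. Depth limits Serpina3b, Serpina3j, Serpina3c and Serpinb9b, with under 10 counts in every NT2 sample. The fitted fold change of Serpinb9b depends on the prior count and is not given.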
